A study of Mus musculus with 2 samples.

Results

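The S100 calcium-binding genes described here are S100a8, S100a9, S100a4, S100a6, S100a10 and S100a11, 6 of the 31053 genes in the deposited matrix. They were chosen by name, and not by a measured value. Their levels were compared across immune lineages of the mouse cochlea and across 4 conditions. Cells positive for CD45, the pan-leukocyte surface protein, were sorted from cochleae of 4 groups of mice: a control group, called sham here, and groups taken on days 3, 7 and 14 after noise exposure. Each group was 1 pool of the cochleae of 6 mice, and each pool carried its own hashtag antibody, a DNA-barcoded antibody that marks the cells of 1 pool in a shared droplet run. The strain, sex and age of the mice, and the noise level, are not given in the sources used here, and the labels call the control both sham treated and untreated. With 1 pool per condition there is no replicate check on any difference between days. Intervals below are exact 95% Poisson intervals of a summed count, or exact intervals of a ratio or share, and they cover counting error only.

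S100 proteins are small calcium-binding proteins that work mostly as dimers and pass a calcium signal on to partner proteins. S100A8 and S100A9 pair as calprotectin, which fills the cytosol of neutrophils, binds zinc and manganese, and acts outside the cell as an alarm signal through the receptor TLR4. S100A10 and S100A11 bind annexin A2 and annexin A1 at membranes, S100A4 binds non-muscle myosin, and S100A6, also called calcyclin, binds annexins and the calcyclin-binding protein encoded by Cacybp.

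All 6 genes lie on chromosome 3 in 2 groups, by the GENCODE vM21 annotation of GRCm38. S100a4 (ENSMUSG00000001020, 90603771 to 90606045, plus strand) and S100a6 (ENSMUSG00000001025, 90612882 to 90624181, plus strand) are 6836 bases apart. S100a8 (ENSMUSG00000056054, 90668978 to 90670035, plus strand) and S100a9 (ENSMUSG00000056071, 90692632 to 90695721, minus strand) lie 22596 bases apart. S100a11 (ENSMUSG00000027907, 93520488 to 93526287, plus strand) and S100a10 (ENSMUSG00000041959, 93555080 to 93564643, plus strand) are separated by 28792 bases. S100a7a and S100a5 are among the genes that share the first group.

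The promoters of the 4 members that were abundant in neutrophils are shown because these genes fell into a pair that was lower and a pair that was higher in the more mature cells. Each line gives the 250 bases before the RefSeq start site on GRCm38.p6, 5′ to 3′ on the gene's own strand, with matches to the motifs below in capitals, written as they read on that strand. The windows are chr3:90668821-90669070 for S100a8 (plus strand), chr3:90695722-90695971 for S100a9 (minus strand), chr3:90612644-90612893 for S100a6 (plus strand) and chr3:93520246-93520495 for S100a11 (plus strand). The RefSeq starts of S100a8, S100a6 and S100a11 lie inside the GENCODE genes, so these windows overlap their first bases.
S100a8: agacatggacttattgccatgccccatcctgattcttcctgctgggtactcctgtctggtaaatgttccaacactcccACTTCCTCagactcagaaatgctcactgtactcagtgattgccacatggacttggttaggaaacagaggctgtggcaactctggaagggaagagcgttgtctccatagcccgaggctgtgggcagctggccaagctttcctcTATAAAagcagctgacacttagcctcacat
S100a9: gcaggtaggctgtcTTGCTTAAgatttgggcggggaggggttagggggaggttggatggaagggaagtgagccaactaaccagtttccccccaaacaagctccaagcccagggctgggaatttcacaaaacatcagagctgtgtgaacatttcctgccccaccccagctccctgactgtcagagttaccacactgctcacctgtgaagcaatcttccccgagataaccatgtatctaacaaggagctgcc
S100a6: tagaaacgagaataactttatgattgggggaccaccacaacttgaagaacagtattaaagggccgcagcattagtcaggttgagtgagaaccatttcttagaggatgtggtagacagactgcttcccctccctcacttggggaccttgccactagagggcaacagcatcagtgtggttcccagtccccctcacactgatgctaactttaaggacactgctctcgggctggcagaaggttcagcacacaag
S100a11: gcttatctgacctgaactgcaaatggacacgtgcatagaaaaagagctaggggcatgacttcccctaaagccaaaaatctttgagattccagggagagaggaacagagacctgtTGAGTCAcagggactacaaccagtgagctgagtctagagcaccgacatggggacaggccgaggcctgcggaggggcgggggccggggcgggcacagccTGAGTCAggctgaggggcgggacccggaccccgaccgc

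The search ran on both strands of a window of 300 bases, from 250 before to 50 after the start site, which RefSeq gave for 5 of the 6 members. The motifs were TTGCNNAA (C/EBP type, present in 10.8% of the 32851 promoters searched), GAGGAAGT (PU box, 3.20%), TGANTCA (AP-1, 7.81%) and TATAAA (13.6%). The S100a8 window held a PU box on the minus strand, 172 bases before the start, and TATAAA 30 bases before it. The S100a9 window held the C/EBP-type motif 236 bases before the start, and TATAAA at the start site itself. The S100a11 window held AP-1 motifs 136 and 38 bases before the start. The S100a4 window, not printed, held a PU box 17 bases after the start and TATAAA 31 bases before it. None of these letters occurred in the S100a6 window. These matches are a description of sequence and not evidence of binding.

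The matrix held 1556 barcodes and 15753747 unique molecular identifiers (UMIs, 1 per captured RNA molecule). A hashtag was called for 1359 barcodes, and 1285 passed filters on genes and mitochondrial share: 341 for sham, 551 for day 3, 216 for day 7 and 177 for day 14. Median depth was 6528 to 8378 UMIs per barcode over the pools, and sham had the lowest. A UMI of Ptprc, which encodes CD45, was found in 91.4% of the kept barcodes, from 89.2% to 93.3% over the pools. Marker genes that include no S100 gene placed 1181 barcodes in lineages, and 104 stayed ungated. Neutrophils made up 26.1% of the sham barcodes, 49.0% on day 3, 36.6% on day 7 and 43.5% on day 14. Levels below are UMIs of a gene per 1000000 gene UMIs of the lineage, abbreviated CPM. The library reads the 3′ end of each RNA, so that a level counts molecules and carries no term for gene length.

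**Figure D1:**
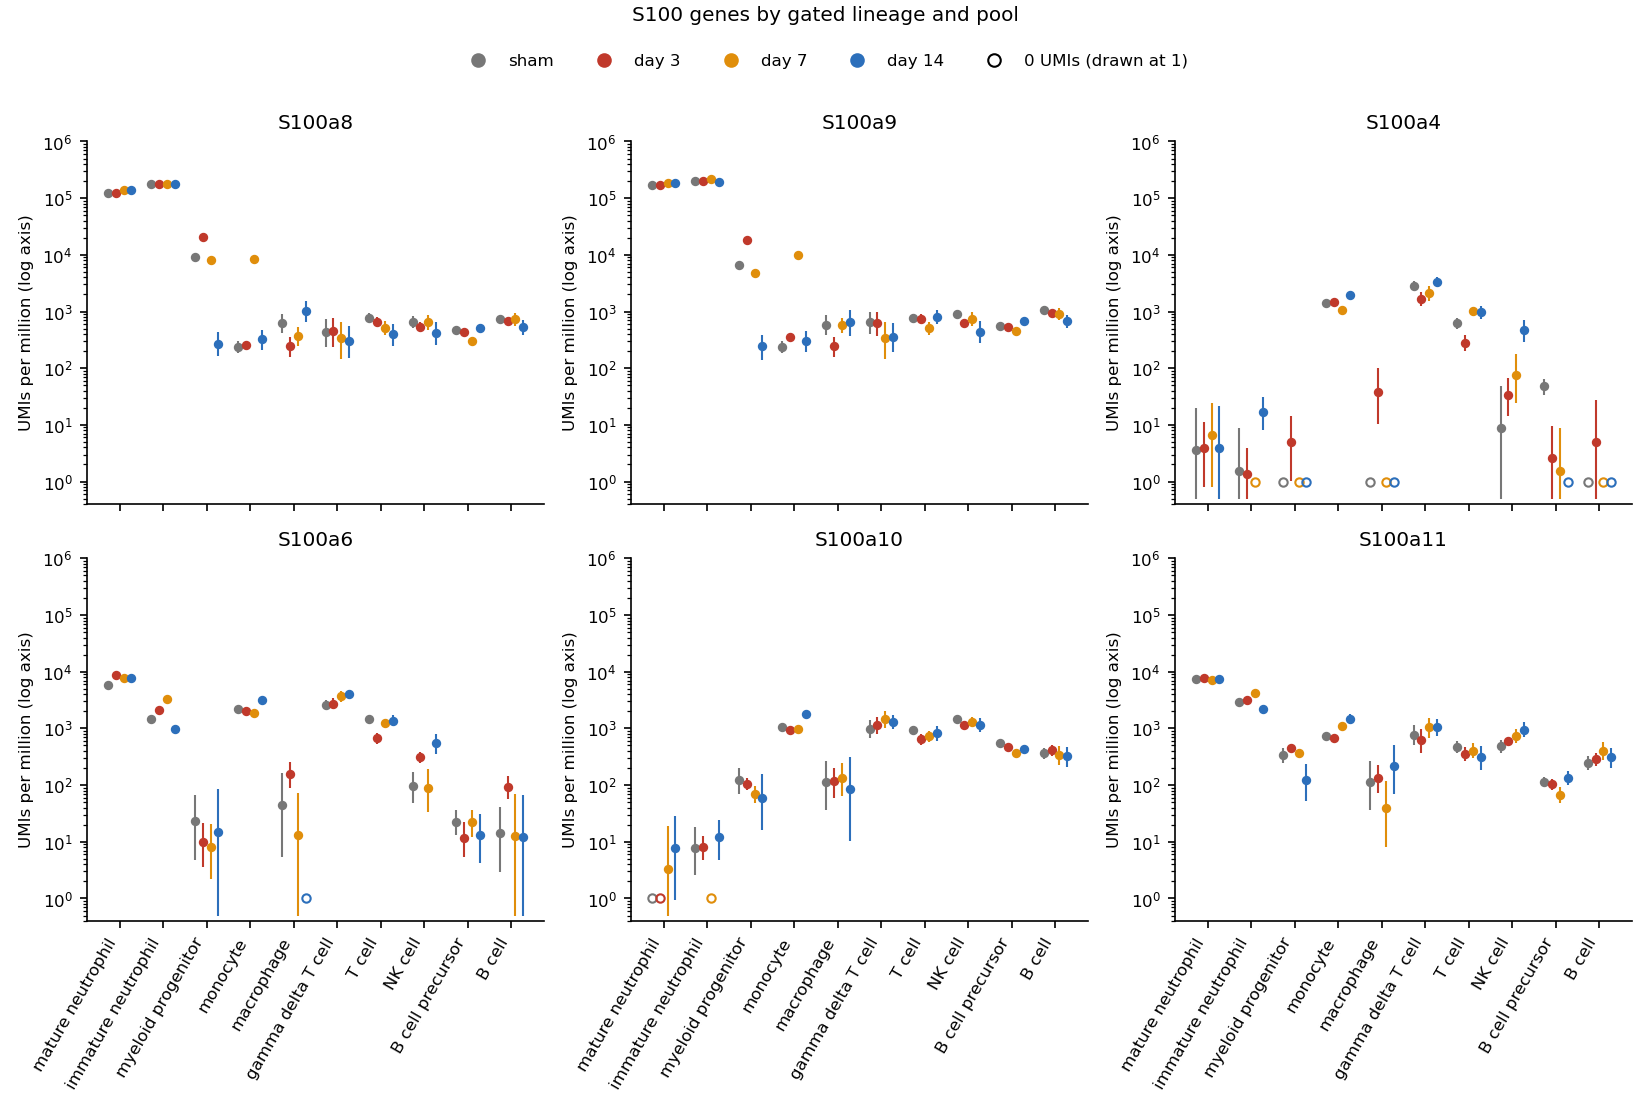
Levels of the 6 S100 genes in CPM (vertical log axes) in 10 gated lineages (horizontal axes) and 4 pools (colours). Points are summed UMIs of a pool, bars are exact 95% Poisson intervals, and open circles at 1 mark pools with 0 UMIs. S100a8 and S100a9 lie at 123260 CPM or more in neutrophils of all 4 pools and at 1084 CPM or less in T, NK and B lineage cells, while S100a4 and S100a10 are lowest in neutrophils or near it.

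S100a8 and S100a9, the calprotectin genes, were by far the most abundant members and were concentrated in neutrophils. Together they gave 30.2% of all UMIs of mature neutrophils (292 barcodes) and 38.3% of all UMIs of immature neutrophils (223 barcodes). In mature neutrophils the S100a8 level was 124033 CPM in sham, 123260 on day 3, 137374 on day 7 and 138886 on day 14. The corresponding S100a9 levels were 167934, 167830, 185680 and 184851 CPM. In both genes sham and day 3 were close to each other, and days 7 and 14 lay above both.

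In immature neutrophils, which are cells still filling their secondary granules, both genes were higher. The S100a8 level was 177702 CPM in sham, 181019 on day 3, 181360 on day 7 and 177329 on day 14. S100a9 stood at 202353, 204371, 216010 and 190960 CPM in the same order. The pools lay closer together than in mature neutrophils for S100a8, and not for S100a9. Over all pools the mature level was 0.714 times the immature level for S100a8 (interval 0.711 to 0.718) and 0.856 times for S100a9 (0.853 to 0.860). Each mature pool lay below each immature pool, for both genes. S100a8 made up the smaller part of the pair in neutrophils: the ratio of S100a8 to S100a9 UMIs was 0.886 (0.883 to 0.889) in immature and 0.739 (0.735 to 0.743) in mature neutrophils.

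Single mature neutrophils spread widely. The share of a barcode's UMIs taken by S100a8 and S100a9 ran from 0.0942% to 46.3%, with a median of 24.8% in sham, 27.2% on day 3, 32.1% on day 7 and 30.9% on day 14. The lower quartile was 3.58% in sham and 6.80% on day 3, against 18.1% on day 7 and 19.2% on day 14. The upper quartiles lay closer together, between 36.3% and 39.1%. Immature neutrophils were tighter, with medians between 38.2% and 40.5% in the 4 pools. The 2 transcripts followed each other from barcode to barcode, with a Pearson correlation of 0.96 and a Spearman correlation of 0.94 over the 292 mature neutrophils, which share 1 library and differ in depth.

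In 21 of the 292 mature neutrophils the pair gave less than 1% of UMIs. These were 7 of 52 in sham (13.5%, exact binomial interval 5.59 to 25.8), 10 of 139 on day 3 (7.19%, 3.5 to 12.8), 2 of 54 on day 7 (3.70%, 0.452 to 12.8) and 2 of 47 on day 14 (4.26%, 0.520 to 14.5). The intervals overlap in every pair of pools. The 21 barcodes had fewer UMIs (median 3056) than the other 271 (median 5344). They kept Csf3r, the G-CSF receptor, at 2444 CPM against 1063 in the others, and Cxcr2, the receptor for neutrophil-attracting chemokines, at 1401 against 1171. The pair is part of the CPM total, so its low share by itself raises the CPM of other genes in the 21. In UMIs, Csf3r had 164 in the 21 barcodes and 1647 in the 271, and Cxcr2 had 94 and 1815. Il1b, which encodes interleukin-1β, was at 19017 CPM against 3188, although 1 barcode held 34.6% of its UMIs in the 21. Retnlg, a transcript of mature neutrophils, was at 358 CPM against 38262, and S100a6 and S100a11 were at 1714 and 4262 CPM against 8184 and 7663. Among genes of other cells, Cd74, the invariant chain gene of antigen-presenting cells, was at 134 CPM (61.3 to 255, from 9 UMIs) against 31.0 CPM (22.8 to 41.1). Of these 9 UMIs, 44.4% were in 1 barcode. Cd14, found in 42.9% of the 21 and 40.6% of the other mature neutrophils, was at 1490 against 358 CPM. In the 21, 1 barcode held 34% of the Cd14 UMIs. C1qa, Cd3e and Cd79a had 0 UMIs in the 21, where 3 UMIs would be 44.7 CPM, above the level of each in the other 271. The part of other cells in these barcodes was not tested. Csf3r, Cxcr2, Il1b and Retnlg are markers of the mature gate, so their presence is in part what placed these barcodes there.

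When mature neutrophils were cut into 4 equal groups by this share, S100a6 was at 2765 CPM in the lowest group and at 7483, 8952 and 8961 CPM in the others. S100a11 was at 5137, 8135, 8114 and 7546 CPM. Both were thus lower where S100a8 and S100a9 were lowest, and median depth was lower there too, at 3006 UMIs against 4109, 6215 and 8875.

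A finer order came from a stage index, the mature minus the immature marker score, cut into 6 bins of 85 or 86 neutrophils. From the least to the most mature bin the S100a8 level was 177531, 183627, 179036, 145126, 107769 and 78040 CPM, and the S100a9 level was 186045, 216741, 229028, 199678, 147784 and 108090 CPM. S100a8 thus kept its level over the first 3 bins and S100a9 was highest in bin 3. S100a6 stood at 411, 2612, 6584, 8416, 8034 and 6465 CPM, and S100a11 at 1730, 3786, 6189, 7933, 7309 and 7480 CPM. Both were lowest in bin 1 and highest in bin 4. Median depth fell over the same bins from 20459 to 3990 UMIs, and the part of depth in these courses was not tested.

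**Figure D2:**
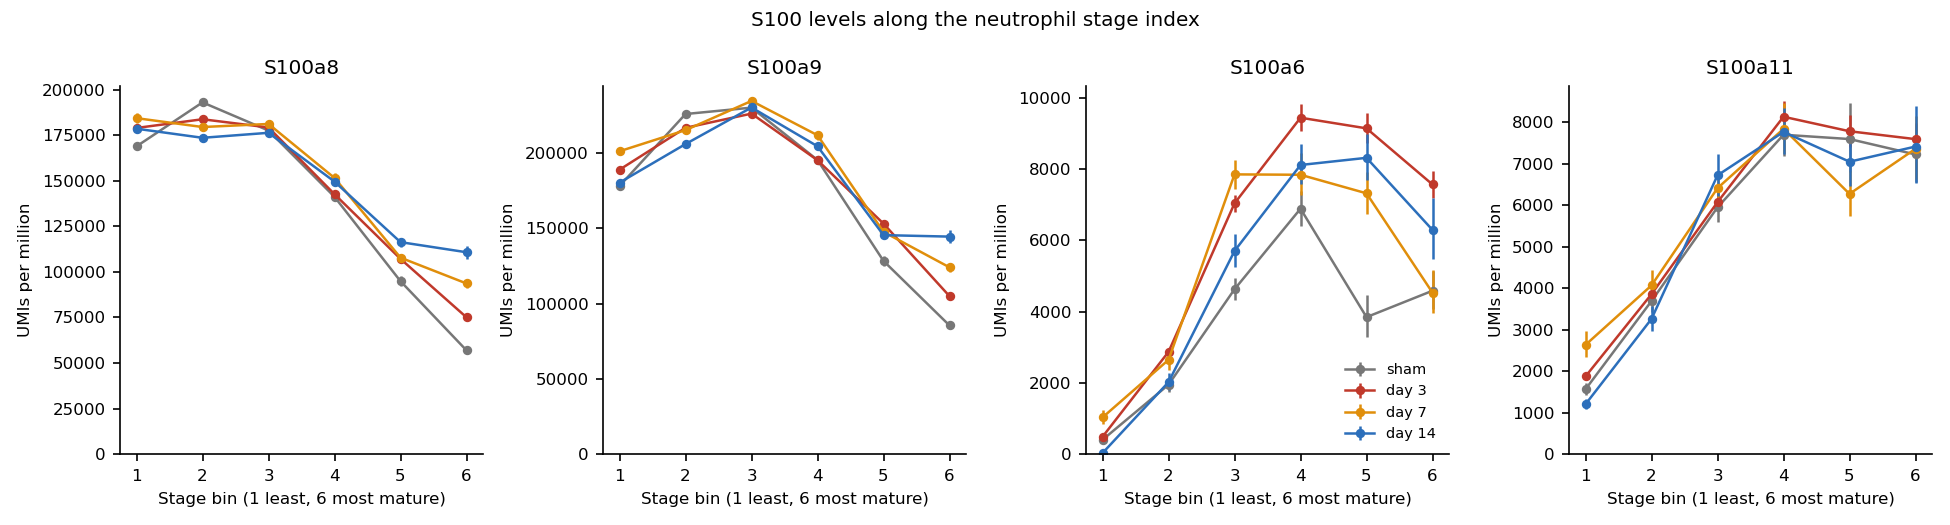
Levels of S100a8, S100a9, S100a6 and S100a11 in CPM (vertical axes, starting at 0, with a separate scale for each gene) in 6 bins of the neutrophil stage index (horizontal axes, bin 1 least mature), by pool. Points are summed UMIs, and bars are exact 95% Poisson intervals. The S100a8 and S100a9 lines fall from bin 3 to bin 6, and the day 3 line of S100a6 lies above the sham line in every bin.

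In the last bin the pools separated. S100a8 stood at 56940 CPM in sham (16 barcodes), 75080 on day 3 (48), 93670 on day 7 (13) and 110812 on day 14 (8). Sham was the lowest pool, and day 14 was 1.95 times as high (1.86 to 2.04). In bin 3 the 4 pools lay within 176387 to 181243 CPM. The difference between pools in bin 6 rests on few barcodes, and counting intervals leave out the spread between cells.

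Outside the neutrophils nearly every barcode still held S100a8 and S100a9 UMIs. Among 504 lymphocytes (B cell precursors, B cells, T cells and NK cells), 97.4% had a S100a8 UMI and 97.8% had a S100a9 UMI, at a median depth of 5603 UMIs in the B lineage, 6024 in T cells and 6319 in NK cells. Thinned to 2000 UMIs per barcode, which left out 13 shallower lymphocytes, the shares were 69.3% and 74.8%, against 100% and 99.4% of the neutrophils, of which 28 were left out. The level over all lymphocytes was 502 CPM for S100a8 (481 to 525) and 637 CPM for S100a9 (612 to 662). By pool the S100a8 level in lymphocytes was 564 CPM in sham, 517 on day 3, 396 on day 7 and 498 on day 14, and S100a9 was at 700, 635, 528 and 672 CPM.

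The S100a8 counts were nearly a constant per barcode. S100a8 gave 4.07 UMIs per barcode in B cell precursors, 3.61 in B cells, 4.55 in T cells, 4.34 in NK cells and 4.57 in macrophages. In lymphocytes it gave 4.01, 4.18, 4.03 and 3.96 UMIs per barcode in sham and on days 3, 7 and 14, although the CPM values of the same pools ranged from 396 to 564. In 3 equal groups of lymphocytes from shallow to deep, median depth was 4217, 5805 and 11759 UMIs, and the S100a8 count was 3.72, 4.00 and 4.47 per barcode. The CPM value over the same groups was 949, 680 and 309. S100a9 gave 4.45, 5.26 and 5.74 UMIs per barcode and 1134, 895 and 397 CPM, so its count rose with depth while its CPM fell. The 2 genes together gave 12 UMIs per barcode in 13 plasmacytoid dendritic cells, against 9.21 in lymphocytes. S100a10 behaved otherwise, at 2.20, 3.78 and 8.04 UMIs per barcode and at 560, 643 and 556 CPM.

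**Figure D3:**
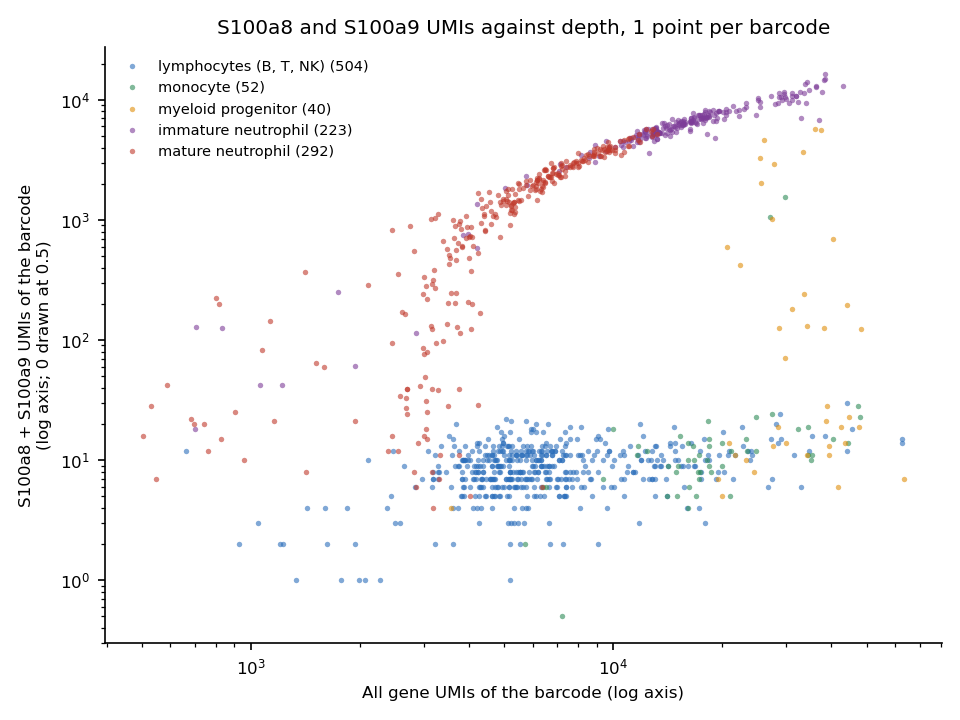
Summed S100a8 and S100a9 UMIs of each barcode (vertical log axis, 0 drawn at 0.5) against all its gene UMIs (horizontal log axis), 1 point per barcode, coloured by lineage. B cell precursors, B cells, T cells and NK cells form a nearly flat band with means of 8.66 to 9.62 UMIs per barcode, and neutrophils rise with depth. Above the band stand 11 of the 40 myeloid progenitors and 2 monocytes, at more than 1% of their UMIs.

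The lymphocyte counts of other abundant neutrophil transcripts were also a small part of the neutrophil counts. Per barcode, S100a8 in lymphocytes was 0.236% and S100a9 0.253% of the mean neutrophil count. The same quantity was 0.235% for Camp, the cathelicidin gene, 0.232% for Retnlg, 0.20% for Lcn2, which encodes lipocalin 2, 0.196% for Ngp, a granule protein gene, and 0.143% for Ltf, the lactoferrin gene. Wfdc21 was at 0.436%, Lyz2 at 0.315%, Chil3 at 0.225% and Mmp8 at 0.165%. The UMI ratio of S100a9 to S100a8 was 1.27 in lymphocytes and 1.18 in neutrophils, and that of Camp to S100a8 was 0.161 and 0.162. Taken as S100a8 over S100a9, the intervals were 0.744 to 0.836 in lymphocytes and 0.844 to 0.849 in neutrophils, and did not overlap. S100a8 and S100a9 UMIs in lymphocytes and macrophages are called background here, and their source was not tested. S100a6 and S100a11 did not keep 1 ratio between lineages: S100a6 was at 0.434% of the neutrophil count in B cell precursors and at 21.1% in T cells, and S100a11 at 2.12% and 6.26%.

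Myeloid progenitors (40 barcodes, gated on genes such as Mpo and Elane) held the next highest level, 13571 CPM of S100a8 and 10948 CPM of S100a9. It came from a minority of them. In 11 barcodes the pair gave between 1.72% and 17.8% of UMIs, and in the other 29 between 0.0110% and 0.719%. The 11 were 1 of 5 in sham, 7 of 18 on day 3, 3 of 15 on day 7 and 0 of 2 on day 14. They held Camp at 23175 CPM against 288 in the others, and Cebpe, a transcription factor of granule formation, at 657 against 142. Cd34, a stem and progenitor cell gene, had 0 UMIs in the 11, where 3 UMIs would be 9.30 CPM, against 211 CPM in the rest. Camp and Cebpe are in the immature neutrophil marker list and Cd34 in that of the progenitors, so the gate also used them. The ratio of S100a8 to S100a9 was 1.17 (1.15 to 1.2) in these 11. In the other 29, S100a8 was at 1264 CPM and S100a9 at 237 CPM, or 42.8 and 8.03 UMIs per barcode, against 4.06 and 5.15 in the much shallower lymphocytes.

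Monocytes (52 barcodes) had 1350 CPM of S100a8 and 1616 CPM of S100a9, but 2 barcodes of day 7 held most of it. They had 476 and 719 S100a8 UMIs, 587 and 841 S100a9 UMIs, and also 60 and 86 UMIs of the neutrophil transcript Retnlg. Among the other 50 monocytes S100a8 gave 5.20 UMIs per barcode and S100a9 gave 6.28, or 255 and 308 CPM, and no barcode had more than 17 UMIs of either. The part of 2 cells in 1 droplet in the pair of day 7 barcodes was not tested. Ly6c2 and Ccr2, monocyte genes, were present in both, with 76 and 74 and with 15 and 12 UMIs.

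Of the 4 members abundant in neutrophils, S100a6 differed most between the stages. Its level in mature neutrophils was 5746 CPM in sham, 8861 on day 3, 7614 on day 7 and 7752 on day 14. In immature neutrophils the levels were 1486, 2149, 3351 and 980 CPM. Every mature pool was above every immature pool. Over all pools the mature level was 4.03 times the immature level (3.92 to 4.15), and 94.2% of mature against 76.7% of immature neutrophils had a S100a6 UMI.

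S100a11 followed at smaller size. It was at 7379, 7742, 7145 and 7441 CPM in mature neutrophils of sham and days 3, 7 and 14, and at 2918, 3118, 4187 and 2209 CPM in immature neutrophils. The mature level was 2.47 times the immature level (2.41 to 2.54). The pools of mature neutrophils were nearly level for S100a11. Between stages, 3 of the 6 members were past 1.5-fold, S100a6 and S100a11 higher and S100a10 lower (0.234, from 3 against 30 UMIs, and 0.401 with a hashtag rule of 20 UMIs and 90%) in mature neutrophils. Of all 7370 genes measured in this comparison 62.7% were past the same fold, so this count lies near the background. With the 6 members and 9 abundant neutrophil genes left out of the total, the mature over immature ratio was 0.550 for S100a8. It was 0.660 for S100a9, and 5 of the 6 members were past the fold. The share of all genes under this scaling is not given here, so that count stands without its background.

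Away from neutrophils S100a6 marked γδ T cells, monocytes and part of the T cells. The γδ T cell gate held only 12 barcodes, 4 in sham and 3, 2 and 3 on days 3, 7 and 14. There were 13 plasmacytoid dendritic cells and 11 mast cells or basophils, so the ranks and pool ranges of these 3 gates rest on few cells. The order of its levels was mature neutrophils (7916 CPM), γδ T cells (3312), monocytes (2144), immature neutrophils (1964), T cells (1150), plasmacytoid dendritic cells (368), NK cells (250), macrophages (76.9), B cells (41.6), B cell precursors (17.9), mast cells or basophils (11.1) and myeloid progenitors (10.7). Monocyte pools ranged from 1845 to 3221 CPM and immature neutrophil pools from 980 to 3351, so these neighbours overlap. The last 3 lineages did not differ beyond their counting intervals.

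S100a11 had the order mature neutrophils (7522 CPM), immature neutrophils (3040), γδ T cells (880), monocytes (813), NK cells (629), T cells (400) and, from myeloid progenitors downward, less than that. γδ T cells (627 to 1059 over the pools) and monocytes (692 to 1473) overlapped. NK cells stood at 485, 603, 733 and 952 CPM in sham and on days 3, 7 and 14, the last from 5 barcodes. B cells (292 CPM) were above B cell precursors (102 CPM), and in each of the 4 pools the B cell level was the higher one.

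S100a4, whose protein binds non-muscle myosin, and S100a10, the annexin A2 partner, were nearly absent from neutrophils. S100a4 was at 4.33 CPM in mature and 3.70 CPM in immature neutrophils, and S100a10 at 1.86 and 7.94 CPM. S100a4 was highest in γδ T cells (2573 CPM, from 12 barcodes), monocytes (1451 CPM) and T cells (652 CPM). In monocytes it was at 1423 CPM in sham, 1500 on day 3, 1054 on day 7 and 1956 on day 14, and 92.3% of the barcodes had a UMI.

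S100a10 was broader. It was at 1244 CPM in NK cells, 1220 in γδ T cells, 1050 in monocytes, 785 in T cells, 603 in mast cells or basophils, 467 in B cell precursors and 371 in B cells. NK cells had 1473, 1135, 1302 and 1163 CPM in sham and on days 3, 7 and 14, and T cells had 950, 642, 723 and 828 CPM. As point values, every NK pool lay above every T cell pool, with 5 to 27 NK cells and 7 to 25 T cells in a pool. NK cells, γδ T cells and monocytes did overlap, with pools of 996 to 1474 CPM in γδ T cells and 955 to 1812 CPM in monocytes. S100a10 UMIs were found in 98.4% of NK cells and 82.2% of B cell precursors, and in 1.03% of mature neutrophils.

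S100a4 divided the T cells. Of 64 T cells, 18 had a S100a4 UMI, and 16 of these 18 (88.9%) also had S100a6, against 13 of the other 46 (28.3%). In the 18, S100a6 was at 2779 CPM (2534 to 3041) against 200 CPM (152 to 258), S100a10 at 1227 against 526 CPM, and S100a11 at 649 against 255 CPM. Ccr7, a chemokine receptor gene that guides naive T cells to lymph nodes, was lower in them, at 35.4 against 306 CPM. Lef1, a transcription factor of naive T cells, was at 100 against 385 CPM, and Itgb1, the integrin β1 gene, at 796 against 261 CPM. Trac and Cd3e did not divide this way, at 549 against 716 CPM and 832 against 705 CPM. Cd44 was at 47.2 CPM (20.38 to 93) against 37.85 CPM (18.89 to 67.72), with overlapping intervals. It rested on 8 and 11 UMIs, found in 38.9% against 15.2% of the barcodes. The 18 barcodes were deeper, with a median of 7813 against 5772 UMIs, and these genes were chosen after S100a4 had been seen to divide the cells.

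A few barcodes set the S100a4 and S100a6 levels of T and NK cells. Of the 92 S100a4 UMIs of sham T cells 1 barcode held 70, and of their 216 S100a6 UMIs 1 held 148. All 22 S100a4 UMIs of day 14 NK cells came from 1 barcode. Without the highest barcode of each pool the T cell level of S100a4 was 316 CPM and the NK cell level 9.47 CPM. No difference between days is therefore given for these lineages, which also had fewer than 30 barcodes in every pool. Across single T cells S100a4 and S100a6 correlated with a Pearson r of 0.80 and a Spearman rho of 0.72 (64 barcodes), and across 52 monocytes with 0.76 and 0.84. These barcodes share a library and differ in depth.

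Days after noise were compared with sham inside a lineage where both pools had at least 30 barcodes, which left 9 comparisons. A gene counted as measured when the pair of pools held 20 UMIs of it or more, and it was called at 1.5-fold. All comparisons of a lineage share the same sham pool.

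**Figure D4:**
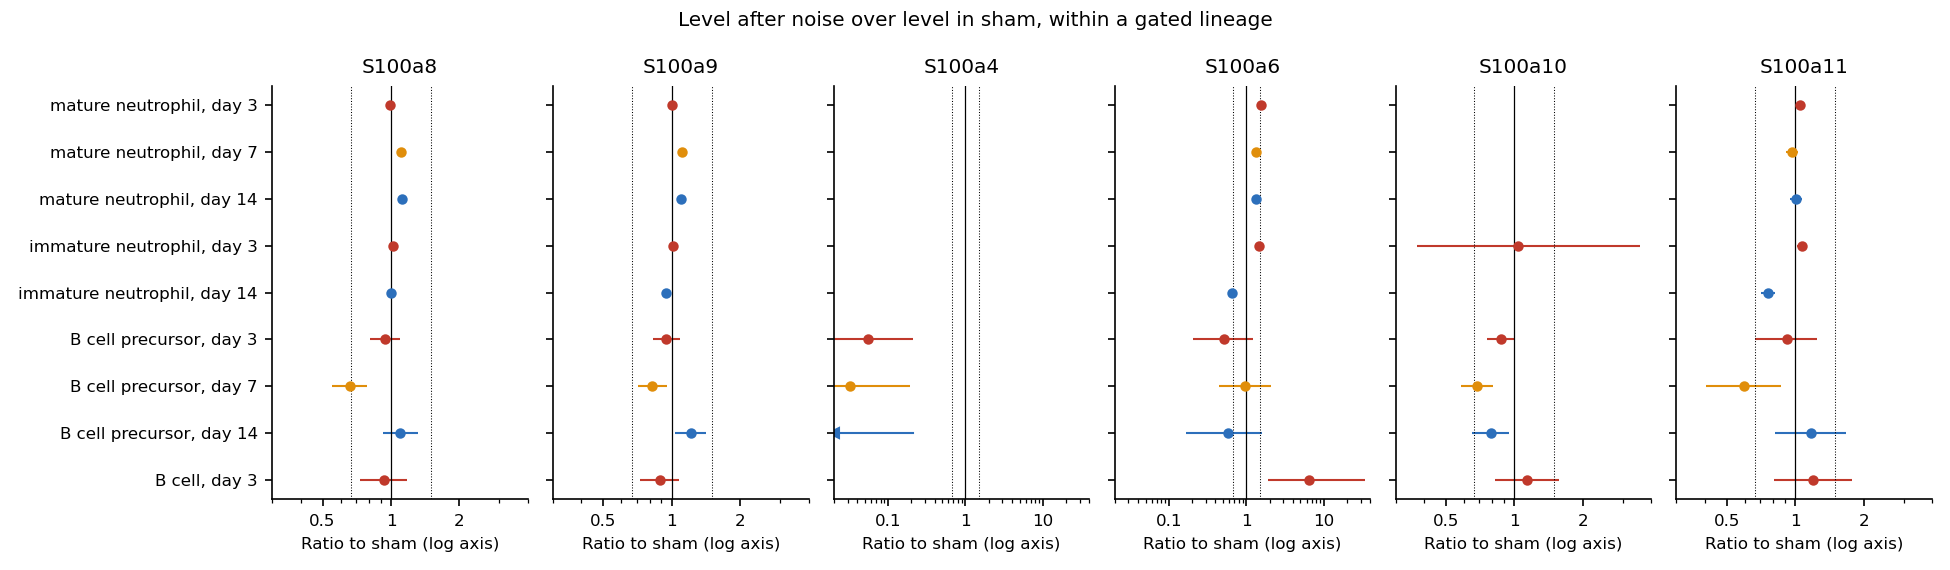
Ratio of each member's level after noise to its level in sham (horizontal log axes, wider for S100a4 and S100a6 than for the others) in 9 comparisons (vertical axis). Points are ratios for genes with at least 20 UMIs, bars are exact 95% intervals for counting error, dotted lines mark 1.5-fold, and the arrowhead marks a pool with 0 UMIs. In mature neutrophils the S100a6 points lie to the right of 1 on all 3 days, and only the day 3 point is past 1.5.

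In mature neutrophils on day 3, 1 of the 4 members measured was past 1.5-fold, while 24.1% of 3674 genes were. It was S100a6, at 1.54 times the sham level (1.46 to 1.63), with 6938 UMIs in 139 barcodes against 1612 in 52. Its barcode median was 7652 CPM against 3789. S100a8 was at 0.994 times sham (0.982 to 1.01), S100a9 at 0.999 (0.989 to 1.01) and S100a11 at 1.05 (0.998 to 1.10). With a hashtag rule of 5 UMIs and 60% in place of 10 UMIs and 80%, the S100a6 ratio was 1.48, under the threshold. The stage bins cover all neutrophils, and in bins 1 and 2 the immature score was the higher one. In each bin the S100a6 level of day 3 was above that of sham. It was 486 CPM against 402 in bin 1, where the interval of the ratio included 1 (0.9995 to 1.475). The levels were 2872 against 1950 in bin 2, 7043 against 4630 in bin 3 and 9449 against 6893 in bin 4. They were 9150 against 3847 in bin 5 and 7573 against 4588 in bin 6.

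On days 7 and 14 none of the 4 measured members was past 1.5-fold in mature neutrophils, where 22.6% of 2583 genes and 24.9% of 2445 genes were. S100a6 was at 1.33 (1.24 to 1.41) and 1.35 (1.26 to 1.44) times sham. S100a8 was at 1.11 and 1.12, and S100a9 at 1.11 and 1.10. S100a11 was at 0.968 and 1.01. The median log2 ratio of the 4 members was 0.03, 0.15 and 0.15 on days 3, 7 and 14, and that of all measured genes was -0.01, -0.08 and -0.11. Mature neutrophils of the sham pool were shallower, with a median of 4359 UMIs against 5203 to 5354, and they held more of the immature transcripts Ngp and Camp than day 3 and day 7. Ngp was at 0.499 and 0.496 times sham, and Camp at 0.655 and 0.663. The part of depth and of stage in these ratios was not tested beyond the stage bins.

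In immature neutrophils on day 3 none of 5 measured members was past 1.5-fold, against 24.3% of 6049 genes. S100a6 came closest, at 1.45 times sham (1.35 to 1.55), and S100a8, S100a9 and S100a11 were at 1.02, 1.01 and 1.07. On day 14, S100a6 alone of 4 measured members was past the fold, at 0.660 times sham (0.594 to 0.733), where 28.7% of 4183 genes were. It had 574 UMIs in 30 barcodes against 949 in 37. S100a11 was at 0.757 (0.705 to 0.813), and S100a8 and S100a9 at 0.998 and 0.944. The stage bins were also weighted alike in both pools, each bin by its barcodes in the pools together. Bins with fewer than 5 barcodes in a pool were left out. The day 14 ratio of S100a6 was then 1.04, so that its direction turned. Bins 1 and 2 held 15 and 10 of the 30 day 14 barcodes, so this value rests on few barcodes in the later bins. The day 14 pool was low in bin 1, at 28.7 against 402 CPM, and not in the other 5 bins of the stage index over all neutrophils, where its ratio to sham ran from 1.04 to 2.16. The 25 immature neutrophils of day 7 were too few for a ratio.

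In B cell precursors the counts of the members were small. On day 3, 2 of 6 were past 1.5-fold against 16.6% of 7056 genes, on day 7 3 of 6 against 22.8% of 6781, and on day 14 2 of 6 against 21.9% of 6278. S100a4 was among them each time, at 38 UMIs in sham and 2, 1 and 0 UMIs on the 3 days. Of the 38 UMIs 37 were in 1 barcode. S100a6 was at 0.522 times sham on day 3 (9 against 18 UMIs) and 0.576 on day 14 (5 against 18 UMIs), with intervals that include 1, and with the looser hashtag rule the day 3 ratio was 0.961. Without the deepest 5% of barcodes, 1 member was past the fold on day 7. On day 7 S100a8 was at 0.657 times sham (0.550 to 0.783) and S100a11 at 0.594 (0.403 to 0.864). Counted per barcode, S100a8 was at 3.84 UMIs on day 7 and 4.12 in sham, and S100a11 at 0.843 and 1.00. S100a10, a gene above background in these cells, was at 548, 477, 374 and 431 CPM in sham and on days 3, 7 and 14. Its day 7 ratio was 0.683 (0.581 to 0.802). Day 7 had 239 S100a10 UMIs in 51 barcodes with 638307 gene UMIs, and sham had 435 in 90 barcodes with 793991. The part of this depth difference in the ratio was not tested.

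B cells could be compared on day 3 only. There 1 of 5 measured members was past 1.5-fold, against 23.1% of 3017 genes. It was S100a6, with 19 UMIs in 37 barcodes against 3 UMIs in 44, a ratio of 6.52 (1.92 to 34.4). One barcode held 8 of the 19 UMIs. S100a10 was at 413 against 363 CPM and S100a11 at 290 against 244 CPM.

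Of 10 other S100 genes, S100a13 had the highest level in each of the 12 lineages with at least 10 barcodes. It was at 304 CPM in NK cells, 198 in T cells, 147 in immature and 82.3 in mature neutrophils. S100a1 reached 124 CPM in myeloid progenitors, 75.2 in monocytes and 72.9 in macrophages. S100a16 and S100z had 0 UMIs in the main lineages, and S100a7a, a neighbour of S100a8, was at 5.57 CPM in mature neutrophils. In mature neutrophils 1 of the 10 could be measured on each day, and S100a13 was at 2.01 times sham (1.10 to 3.81) on day 7. Both S100a13 (0.558) and S100a1 (0.175) were lower in mature than in immature neutrophils.

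Among 8 receptors and adaptors of extracellular S100A8 and S100A9, 5 of 6 measured were higher and 0 lower past 1.5-fold in mature than in immature neutrophils, where 29.2% of all measured genes were higher and 33.5% lower. They were Tlr4 (3.18-fold), its co-receptor gene Ly96 (5.41), Cd14 (1.63), the adaptor gene Myd88 (2.67) and Emb, a receptor of the basigin family (3.33). Levels stayed low: Tlr4 was at 21.0 CPM and Ly96 at 45.8 CPM in mature neutrophils, and Ager, which encodes RAGE, at 0.619 CPM, from 1 UMI. Emb was the highest of the list in mature neutrophils (812 CPM) and monocytes (726 CPM), Cd14 in macrophages (1162 CPM) and immature neutrophils (249 CPM), and Bsg, which encodes basigin, in NK cells (159 CPM), B cells (85.0 CPM) and B cell precursors (119 CPM). On day 3, Cd14 was at 1.78 times sham in mature neutrophils (1.40 to 2.29), the one receptor past the fold of 6 measured. On day 7, 1 of 5 was lower, and on day 14, 2 of 5 were, with Myd88 at 0.431 (0.208 to 0.840). Of all genes measured in mature neutrophils, 24.1%, 22.6% and 24.9% were past the fold on days 3, 7 and 14. In B cell precursors Emb was at 2.30 times sham on day 7 (24 against 13 UMIs).

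Among 12 annexins and other binding partners, 3 of 11 measured were higher and 5 lower in mature than in immature neutrophils, a share near the 62.7% of all genes past the fold. Anxa2, the partner of S100A10, was higher at 1110 against 440 CPM although S100a10 itself was nearly absent. Anxa1, a partner of S100A11, was lower at 1204 against 3910 CPM while S100a11 was higher. Cacybp, the partner of S100A6, was at 16.1 against 33.9 CPM, and Myh9, the myosin that S100A4 binds, at 727 against 468 CPM. Anxa6 was higher at 4.53-fold, and Anxa3 and Anxa7 were lower at 0.340 and 0.213. Ahnak, a large scaffold protein gene that led the list in monocytes (728 CPM) and NK cells (607 CPM), was at 2.47 CPM in mature neutrophils. In immature neutrophils Cacybp was at 0.510 times sham on day 3 (0.339 to 0.776) and 0.475 on day 14 (0.252 to 0.860), and Anxa5 was at 0.623 on day 14 (0.420 to 0.914). In B cell precursors Anxa5 was at 2.03 times sham on day 3 (1.16 to 3.68). In mature neutrophils 0 of 8 were past 1.5-fold on day 7 and 0 of 8 on day 14, and 1 of 8 was lower on day 3. The shares of all genes past the fold were 22.6%, 24.9% and 24.1% in the same order.

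Of 5 granulopoiesis factors, Cebpb, Cebpa, Spi1 and Cebpd were higher and Cebpe lower in mature than in immature neutrophils, beside 62.7% of all genes past the fold. Cebpb was at 3404 against 386 CPM, Spi1, which encodes PU.1, at 832 against 459 CPM, and Cebpe at 41.5 against 424 CPM. Cebpe was also in the immature marker list used for gating. In mature neutrophils Cebpe was at 0.185, 0.366 and 0.282 times sham on days 3, 7 and 14, from 16, 12 and 8 UMIs against 31.

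The genes most like each member were sought by the Pearson correlation of log2(CPM + 10) over 9 lineages, all pools together, among 2905 genes. The closest to S100a8 was S100a9 at 0.998, followed by Mrgpra2b, Olfm4, B230208H11Rik and Wfdc21, all at 0.975 or more. For S100a9 the list also held G0s2. S100a4 was closest to Arf5 (0.88), Gltp, Emp1, Ahnak and Vim (0.83). S100a6 was closest to Lgals3 (0.94), Card19, Sntb2, Myh9 and Rbms1. S100a10 was closest to Crip1 (0.98), Tmsb10, Esyt1, Nt5c and Mbnl1. S100a11 was closest to Dgat1 (0.95), Lyst, Evi2 and Padi4. Between members, S100a8 had a correlation of 0.85 with S100a11, 0.52 with S100a6, -0.42 with S100a4 and -0.88 with S100a10. The 9 lineages share 1 library, and the 2 neutrophil stages carry much of each value.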

How the data were processed

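Cochleae of 6 mice were combined for each condition, stained for CD45 and with 1 of 4 hashtags, sorted as living CD45+ cells and run on a droplet 3′ kit, per the labels' protocols, which give the kit version in 2 ways. The authors deposited 2 matrices of raw UMI counts per gene and barcode, made with Cell Ranger 3.1.0 per the file headers. The submitters' processing notes name the build mm10. Settings for calling barcodes as cells were not stated. Both matrices hold the same 1556 barcodes and identical gene counts, so the gene counts were used once, and 1 matrix adds the hashtags.

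A barcode was assigned to a pool when its top hashtag had at least 10 UMIs and 80% of hashtag UMIs, and kept with at least 200 genes and at most 10% mitochondrial UMIs. Lineages came from 18 marker lists without S100 genes: each marker's log value was scaled by its 90th percentile, scores were averaged, and the top score had to reach 0.3 and lead by 0.1. These thresholds were set after looking at the data. Among the 10 leading genes by fold, the B cell precursor gate held 2 of its own and 3 pan B markers, and the B cell gate 1 and 2. Doublets were treated by leaving out the 45 barcodes with more than 1 hashtag, and no doublet caller was run, so pairs of cells from 1 pool remain. The members and lists were chosen with earlier results of these data known.

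UMIs were summed per lineage and pool, with exact Poisson intervals and exact conditional intervals for ratios at 95%. No test across samples exists with 1 pool per condition. Named from the other lists are genes past 1.5-fold whose interval excludes 1, and those with the highest or lowest levels. Genes of like pattern had to reach 100 CPM in a lineage. Some genes that the rule names are not reported here. The ratio intervals were tested on simulated data. The alternatives covered hashtag and barcode filters, scaling, gate, deepest and top barcodes, fold and UMI minimum. The tools were Python 3.11.15, numpy 2.4.6, scipy 1.17.1 and pandas 2.3.3.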

Additional observations from a re-analysis of the deposited data

Results flagged for a closer look

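Barcodes outside the 4 pools also held S100 transcripts, above the level that 3 UMIs would give. The 152 barcodes without a hashtag, with a median of 623 UMIs and 11.2% mitochondrial UMIs, had 3309 CPM of S100a8, 4053 of S100a9, 137 of S100a6, 78.3 of S100a10 and 137 of S100a11. Per barcode this was 2.22 S100a8 UMIs. The 45 barcodes with more than 1 hashtag had 89423 CPM of S100a8, 99791 of S100a9, 157 of S100a4, 2146 of S100a6, 238 of S100a10 and 1971 of S100a11, at a median of 18124 UMIs.

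Some ratios to sham pointed in opposite directions on 2 days, with counting intervals on either side of 1. In immature neutrophils the day 3 ratio over the day 14 ratio was 2.19 for S100a6, 1.41 for S100a11 and 1.07 for S100a9. In B cell precursors the day 14 ratio over the day 7 ratio was 1.48 for S100a9, whose UMIs in those cells are called background above. These differences were not tested, since each day was 1 pool.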

How the results depend on the processing

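The limits are those of 1 pool per condition: no replicate could be left out, and no difference between days has an error that includes mice. No paired analysis was possible because each condition was 1 pool. Of 439 ratios under alternatives, 340 moved by less than their counting interval and 98 moved further. Among ratios past the fold 1 was counted as reversed. S100a6 in immature neutrophils on day 14 was 1.04 times sham with stages weighted alike in both pools, an alternative chosen after seeing the data. The S100a4 ratios of B cell precursors were left out of the setting without the top barcode, so that count does not cover them there. Too few UMIs remained, 1 in sham and 1, 0 and 0 on days 3, 7 and 14. S100a6 in mature neutrophils on day 3 stayed between 1.48 and 1.70. Of the ratios within the fold, 14 crossed 1 under some alternative. The widest were S100a10 in immature neutrophils on day 3 (0.604 to 2.54), S100a6 in B cell precursors on day 7 (0.778 to 1.60) and S100a4 between neutrophil stages (0.901 to 3.13), all from few UMIs.

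The lymphocyte level of S100a8 was 437 CPM at 5% or less mitochondrial UMIs, 682 as a mean of barcodes and 571 without the deepest 5% of barcodes. That of S100a9 was 554, 853 and 718 in the same settings and 665 without a barcode filter.

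Counts of members past the fold moved as follows, the lower fold being the smaller threshold tried. Counts of all genes are given beside them only for the UMI minimum, so the others stand without their background. Mature neutrophils on day 3 gave 0 with hashtags of 5 UMIs and 60%, day 7 gave 1 at the lower fold and 1 with no UMI minimum, and day 14 gave 1 at the lower fold. Immature neutrophils on day 3 gave 1 with hashtags of 20 UMIs and 90%, as a mean of barcodes, without the top barcode, at the lower fold and with stages weighted alike. On day 14 they gave 0 with hashtags of 20 UMIs and 90%, as a mean of barcodes and with stages weighted alike, 2 at the lower fold and 3 with no UMI minimum. B cell precursors on day 3 gave 1 with both other hashtag rules, at 5% mitochondrial UMIs and without the top barcode, and 0 at 50 UMIs. On day 7 they gave 1 without the deepest 5%. On day 14 they gave 1 with hashtags of 20 UMIs and 90%, without a filter, as a mean of barcodes and without the top barcode, and 0 at 50 UMIs. B cells on day 3 gave 0 without the deepest 5% and at 50 UMIs. Mature over immature gave 5 when scaled without the members and 9 abundant neutrophil genes, and 5 as a mean of barcodes. The counts of all genes past 1.5-fold against sham were 583 to 1546, 108 to 624 at 50 UMIs and 5026 to 5947 with no minimum, and mature over immature gave 4621, or 9270 with no minimum. Not run, for fewer than 30 barcodes, were 5% mitochondrial UMIs for B cell precursors on days 7 and 14 and B cells on day 3, and the set without the deepest 5% for immature neutrophils on day 14.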
